A study of Mus musculus with 25 samples.

Results

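The libraries compared were the 13 made from Achilles tendons of mice kept at cage activity, chosen by their titles: 6 labelled AMPKcKO (cKO, for conditional knock-out) and 7 labelled wild type (WT). They are 13 of the 25 libraries of the series, and the other 12 came from wheel runners. All 25 tendons were taken at 3 months of age, and the labels give all of them the same batch. The library names carry 2 project prefixes, and WT female replicate 4 and cKO male replicate 3 are the 2 libraries with the less common one. The WT group held 4 females and 3 males, and the cKO group held 3 of each. The gene meant to be lost, going by the title of the series, is Prkaa1, which encodes the catalytic subunit AMPKα1. The strain, the promoter that drives Cre, the exons removed and the genotype of the WT mice at the floxed and Cre loci are not given in the sources used here. The question was what loss of this subunit does to the transcripts of a tendon that is not under extra load. The labels number the replicates and name no animals, so the p-values measure the spread between these libraries.

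AMPK is a kinase built from a catalytic α, a scaffold β and a nucleotide-sensing γ subunit, each with more than 1 gene. It is switched on by a falling energy charge and by the upstream kinases LKB1 and CaMKK2. It phosphorylates enzymes of lipid synthesis, the autophagy kinase ULK1 and regulators of mTORC1, so most of its direct effects act on proteins and not on transcript levels. In tendon the resident cells are tenocytes, which make a matrix of type I collagen and small proteoglycans.

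Totals in the cage libraries were 13193228 to 45724243 counts. In both groups the libraries carried tenocyte genes at high level, with Col1a1 at 300.33 to 2324.94 FPKM, the tendon glycoprotein gene Thbs4 at 179.45 to 748.75 FPKM and the tenocyte membrane protein gene Tnmd at 20.17 to 76.05 FPKM. They also carried skeletal muscle, with the actin gene Acta1 at 1571.6 to 7522.2 FPKM. The muscle fibre lists made up 15.1% ± 5.24 of all counts in WT (SD, n = 7) and 14.6% ± 4.80 in cKO (SD, n = 6), a difference of -0.54 percentage points (exact permutation of the libraries, two-sided, p = 0.853). WT female replicate 1 stood apart, with a muscle share of 4.71% against 8.23% to 21.6% in the other 12 libraries. Correlations between libraries across genes averaged 0.950 over the 21 WT pairs, 0.962 over the 15 cKO pairs and 0.957 over the 42 pairs of a WT and a cKO library. Genes are not independent replicates, and these averages are a description.

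Prkaa1 (ENSMUSG00000050697, chromosome 15, 5143861 to 5181899, plus strand, GRCm38) was present in every library labelled cKO. WT females had 26.1, 18.7, 29.7 and 12.8 CPM (counts divided by the scaled library size), and WT males had 18.7, 22.2 and 24.8 CPM. The cKO females had 15.6, 13.2 and 16.8 CPM, and the cKO males had 20.01, 16.9 and 17.4 CPM. The cKO values were more tightly grouped and lay toward the low end of the WT range, but the groups overlapped, and the lowest library of all was WT female replicate 4. The means were 21.9 ± 5.63 CPM in WT (SD, n = 7) and 16.7 ± 2.22 CPM in cKO (SD, n = 6). The log2 fold change was -0.41 ± 0.16 (SE, 95% interval -0.75 to -0.06), with an unadjusted p under 0.05 and an adjusted p = 1.00. Without the 2 libraries of the less common project, 1 of which is that lowest library, it was -0.50 (adjusted p = 1.00). It was -0.53 ± 0.23 in females and -0.27 ± 0.24 in males, and the difference between the sexes did not pass (adjusted p = 0.962). The whole-gene count cannot show whether the remaining transcripts hold the removed exons, and the tendon holds muscle and other cells beside tenocytes. In such bulk tissue, fewer cells of a type and less RNA per cell cannot be told apart.

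The other 6 subunit genes had adjusted p = 1.00 each. Prkaa2, which encodes the other catalytic subunit and is abundant in muscle, had 25.5 to 108 CPM in WT and 52.9 to 136 CPM in cKO, and its log2 fold change was -0.01 ± 0.25 (95% interval -0.54 to 0.53). Per transcript length it was the more abundant catalytic gene, at 11.5 ± 3.27 FPKM in WT (SD, n = 7) and 11.8 ± 2.98 FPKM in cKO (SD, n = 6) against 5.09 ± 1.65 and 3.71 ± 0.593 FPKM for Prkaa1. The lowest Prkaa2 library was WT female replicate 1, the library with the lowest muscle share. Of the regulatory subunits, Prkag1 had the smallest p (log2 fold change 0.20 ± 0.10) and was also the most abundant per length, at 17.9 ± 2.24 FPKM in WT and 19.2 ± 1.84 FPKM in cKO. Prkab1 had 0.21 ± 0.15 and Prkag2 had -0.01 ± 0.13. Prkab2 and Prkag3, 2 subunit genes of muscle, had -0.02 ± 0.26 and -0.28 ± 0.38, and the interval of Prkag3 reached from -1.10 to 0.54.

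**Figure D1:**
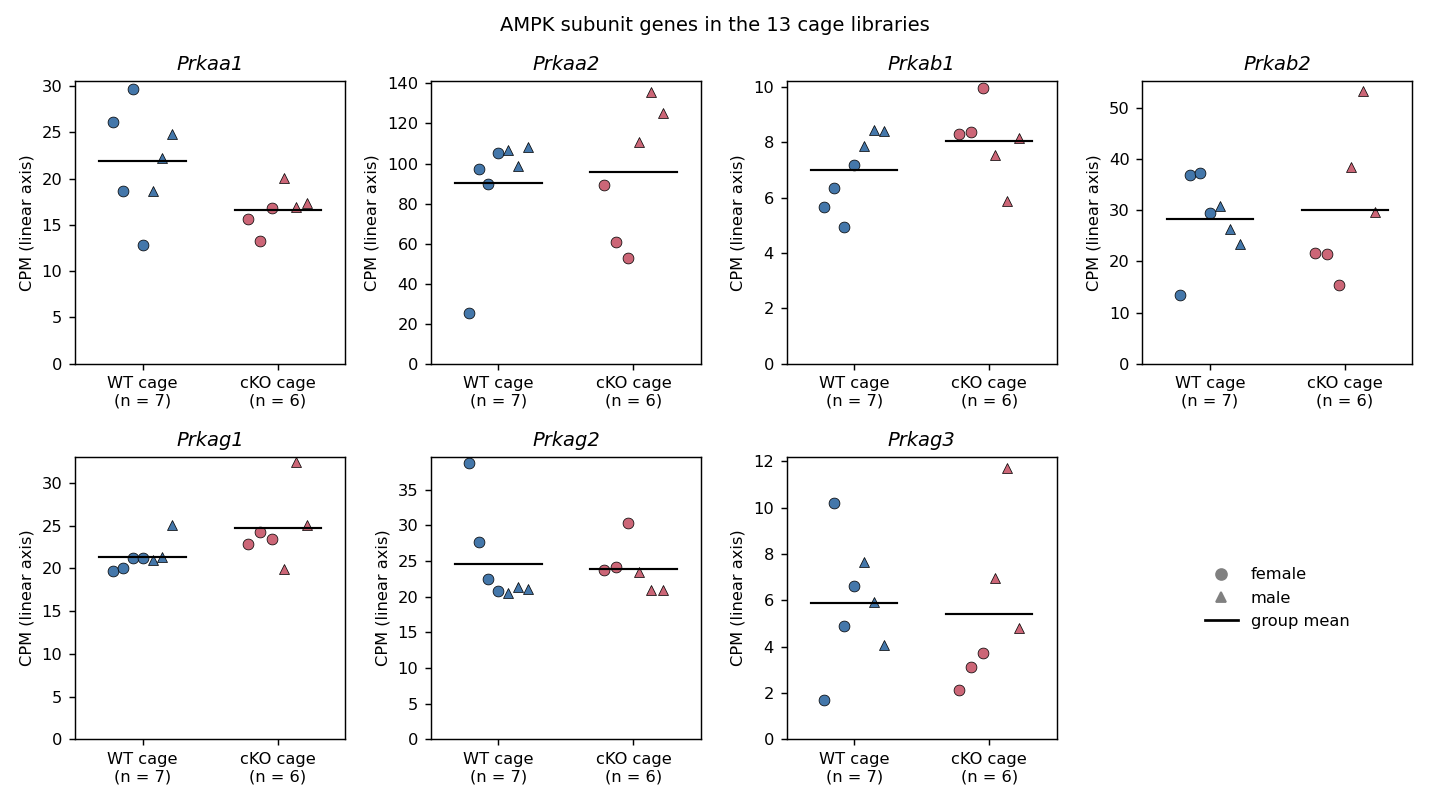
CPM of the 7 AMPK subunit genes on linear axes that start at 0, 1 point per library (circles female, triangles male), with a line at the group mean. The cKO libraries have 13.2 to 20.01 CPM of Prkaa1 against 12.8 to 29.7 CPM in WT, and the groups overlap for every subunit.

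Of the 18 tested genes for upstream kinases, phosphatases and other regulators of AMPK, 8 had a positive and 10 a negative fold change (median -0.01). Cab39l, for a partner protein of the LKB1 complex, had -0.20 ± 0.11, and Strada, for the pseudokinase of that complex, had -0.25 ± 0.15. Map3k7, for the kinase TAK1, had -0.13 ± 0.10 and Cblb, for a ubiquitin ligase, had -0.10 ± 0.09. All 18 intervals lay within a log2 fold change of 1 in either direction. None of the 18 had an unadjusted p under 0.05.

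Sequences of Cre and of the reporters were counted beside the genes, and they did not split the libraries in the way the genotype labels do. Cre, which cuts out floxed exons, had 0 counts in all 7 WT libraries. The cKO females had 28, 35 and 0 Cre counts, and the cKO males had 42, 15 and 14. The cKO females had 3292, 64 and 0 eGFP counts and the cKO males had 4857, 45 and 25, whereas 6 WT libraries had 0 and WT female replicate 1 had 1. The library labelled cKO female replicate 3 thus had neither Cre nor eGFP, and its 0 counts allow up to 0.122 CPM of either (3 counts of its total, counting error only). The reporters mCherry and tdTomato had 0 counts in all 13 libraries.

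Among the cage libraries, Bop1 and Scx were high in the same 2 cKO libraries that had the highest eGFP counts. Scx (ENSMUSG00000034161, chromosome 15, 76457452 to 76459458, plus strand) encodes scleraxis, a transcription factor of tendon cells. Bop1 (ENSMUSG00000022557, chromosome 15, 76452989 to 76477277, minus strand) encodes a factor of large ribosomal subunit assembly, and 1 of its 4 annotated transcripts spans Scx. None of the 2007 exon bases of Scx lie inside a Bop1 exon. The nearest Bop1 exon lies 1179 bases from an end of Scx. Reads within Scx exons thus fall in no Bop1 exon of this annotation, on either strand. Whether the counting used the strand is not stated.

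Bop1 had 8.08, 12.7, 10.4 and 14.6 CPM in WT females and 12.5, 11.5 and 13.5 CPM in WT males. The cKO females had 301, 17.5 and 10.45 CPM, and the cKO males had 156, 21.2 and 17.5 CPM. The 3 cKO libraries with 25 to 64 eGFP counts had 17.5 to 21.2 CPM, all above the highest WT cage library (14.6 CPM). The cKO library without eGFP lay within the range of the WT cage libraries. WT running female replicate 3, with 0 eGFP counts and scaled among the runners, also had 17.5 CPM. The log2 fold change over all 13 libraries was 2.86 ± 0.69 (adjusted p = 1.00), and it was 0.46 (adjusted p = 1.00) without the 2 libraries of high eGFP.

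Scx had 12.6, 35.1, 23.7 and 20.6 CPM in WT females and 20.2, 19.0 and 38.9 CPM in WT males. The cKO females had 137, 30.1 and 25.3 CPM, and the cKO males had 121, 23.0 and 17.3 CPM. The 4 other cKO libraries lay inside the WT range. The log2 fold change was 1.28 ± 0.47 (adjusted p = 1.00) and turned to -0.02 without those 2 libraries (adjusted p = 1.00). In the runners, all 6 cKO libraries had high eGFP (2523 to 5122 counts), with Bop1 at 194 to 590 CPM and Scx at 117 to 223 CPM. The library labelled WT running male replicate 2, with 0 Cre and 2731 eGFP counts, had 161 CPM of Bop1 and 111 CPM of Scx, against at most 17.5 and 21.7 CPM in the other 5 WT runners. High Bop1 and Scx thus went with high eGFP counts in libraries of both genotype labels. The part of the reporter in these values was not tested beyond the fits given.

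**Figure D2:**
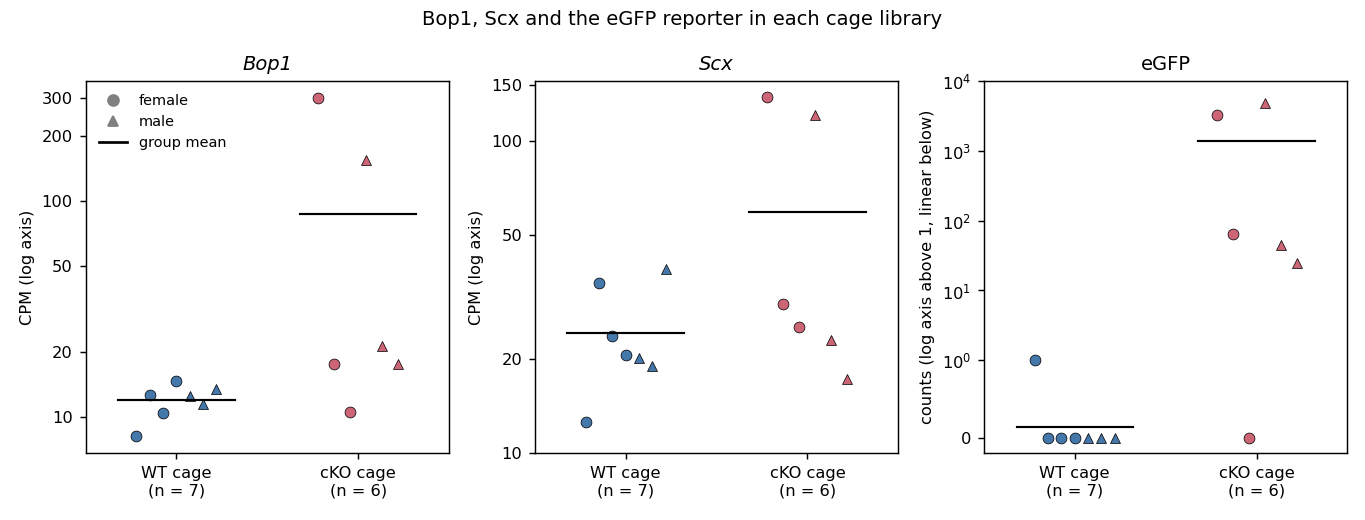
Bop1 and Scx in CPM on log axes, and eGFP in counts on an axis that is logarithmic above 1 and linear below, 1 point per library (circles female, triangles male) with a line at the group mean. The 2 cKO libraries with 3292 and 4857 eGFP counts have 301 and 156 CPM of Bop1 and 137 and 121 CPM of Scx, and every other library has at most 21.2 and 38.9 CPM.

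Across the transcriptome, no gene passed the test between cKO and WT at cage activity. Of 17463 genes tested with edgeR's quasi-likelihood test and Benjamini-Hochberg adjustment, 0 were called at an adjusted p under 0.05 (0%), and the lowest adjusted p was 1.00. An unadjusted p under 0.05 was reached by 365 genes (2.09%) where 873 would by chance, of which 141 were higher (0.807%) and 224 lower (1.28%). DESeq2, limma-voom and limma on FPKM also called 0 genes. The fold changes were small and balanced, with 8834 genes positive (50.6%), a median of 0.00 and a median size of 0.10 on the log2 scale. For 14089 genes (80.7%) the 95% interval lay within a log2 fold change of 1 in either direction, and this held for 12402 of the 12863 genes with a mean log2 CPM of at least 1 (96.4%). The median interval reached 0.40 to each side of its estimate.

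In 3 genes each of the 6 cKO libraries lay above each of the 7 WT libraries (0.0172% of those tested), and in 6 each lay below (0.0344%). Dgke, for the ε form of diacylglycerol kinase, was the 1 gene above that is not a predicted one. It had 9.31 to 11.3 CPM in WT and 11.4 to 13.1 CPM in cKO (log2 fold change 0.27 ± 0.09). Lrsam1, for a ubiquitin ligase that acts on intracellular bacteria and on endosomal sorting, was among the 6 below. WT females had 15.0, 14.7, 14.3 and 14.6 CPM of it and WT males had 13.6, 13.3 and 13.4 CPM, against 11.3, 10.4 and 12.4 CPM in cKO females and 12.4, 11.3 and 10.7 CPM in cKO males. The 2 groups were thus separated by a gap of under 1 CPM, and the log2 fold change was -0.30 ± 0.08 (adjusted p = 1.00). Morn1, also among the 6 and chosen after its values were seen, had 1.82 to 3.18 CPM in WT and 1.11 to 1.73 CPM in cKO (log2 fold change -0.54 ± 0.21). The 6 others in these counts were predicted or unnamed genes.

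Among the genes with the smallest p on the higher side, Smpdl3a, for a phosphodiesterase related to acid sphingomyelinase, had 13.7 to 17.3 CPM in WT and 17.3 to 23.2 CPM in cKO, and its log2 fold change was 0.36 ± 0.09. The lowest cKO library lay just under the highest WT library. Plbd1, for a phospholipase B-like protein, had 0.33 ± 0.10, and its groups overlapped between 15.5 and 18.5 CPM. H4c3, a histone H4 gene whose transcript is made in S phase, had 0.70 ± 0.22, with 3.30 to 7.38 CPM in cKO and 2.34 to 4.91 CPM in WT. Ednrb, for the endothelin receptor B, had 0.30 ± 0.10, Rhou, for an atypical GTPase, had 0.32 ± 0.10, and Fmo2, for a flavin-containing monooxygenase, had 0.31 ± 0.10. Med17, for a core subunit of the Mediator complex, had 0.26 ± 0.09. Snora73b, a small nucleolar RNA, had 0.65 ± 0.23, Sgsm3 had 0.47 ± 0.16 and Dmac2l had 0.53 ± 0.19. All of these had an adjusted p = 1.00 in edgeR.

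On the lower side the smallest p belonged to Med12l, for a paralogue of a subunit of Mediator's kinase module. WT libraries had 9.06 to 12.3 CPM (median 10.8) and cKO libraries had 6.07 to 9.29 CPM (median 8.17), so only WT male replicate 3 lay inside the cKO range. The log2 fold change was -0.46 ± 0.12 (adjusted p = 1.00). Xrcc3, for a DNA repair protein, had -0.56 ± 0.18, Nckap5 had -0.38 ± 0.12 and Plekhh2 had -0.30 ± 0.10. Slc25a47, for a carrier of the mitochondrial family, had -0.53 ± 0.19, and Pet117, for an assembly factor of cytochrome oxidase, had -0.73 ± 0.28 at a mean of 2.49 CPM in WT. Taf1a, for a subunit of the RNA polymerase I factor SL1, had -0.39 ± 0.15, the zinc finger gene Zfp764 had -0.39 ± 0.15, Rbm12b2 had -0.32 ± 0.11 and Ccdc62 had -0.62 ± 0.22.

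**Figure D3:**
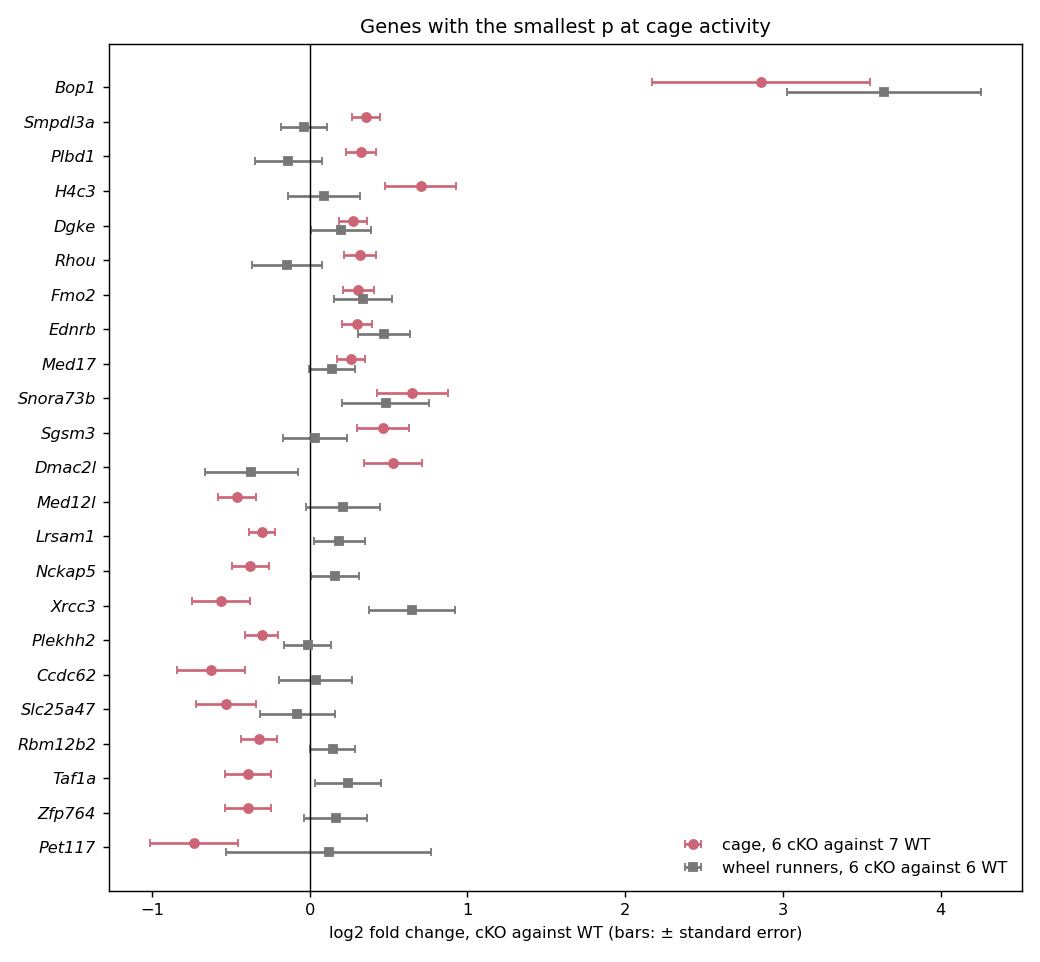
Log2 fold change of cKO against WT with its standard error for the genes with the smallest p at cage activity, in cage libraries (circles) and in runners (squares). The genes were chosen on the cage values, where Bop1 stands at 2.86 and the other genes lie between -0.73 and 0.70, and the runners share no library with them.

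The gene lists below are described by counts and medians, and most medians were small against the spread of single libraries. When each of the 13 libraries was left out in turn, 35 of the 50 lists with at least 5 tested genes had a median that changed sign at least once, 18 of them without cKO male replicate 2 and 14 without WT female replicate 1.

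Genes of energy metabolism, the best known field of AMPK, had small positive fold changes in most members of several lists over both sexes, with larger medians in males. Fatty acid oxidation had 31 of 36 tested genes positive with a median of 0.13, where all genes tested had 50.6% positive and a median of 0.00. Among them, Eci2, an isomerase for unsaturated fatty acids, had 0.15 ± 0.08, Acsl1, for the enzyme that activates long-chain fatty acids, had 0.21 ± 0.12, and Hadhb, for the β subunit of the trifunctional protein, had 0.28 ± 0.17. All 16 genes of the TCA cycle were positive (median 0.12), with Dld at 0.20 ± 0.11. Nuclear genes of oxidative phosphorylation were positive in 71 of 79 cases (median 0.10), and Cox7a2, for a small subunit of cytochrome oxidase, had 0.28 ± 0.13 with 26.1 to 44.2 CPM in cKO and 23.6 to 34.6 CPM in WT. None of these genes passed the test (adjusted p = 1.00 for each gene named), and every interval in the 3 lists lay within a log2 fold change of 1.

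The medians of these lists were smaller without 1 library. In cKO male replicate 2, oxidative phosphorylation genes stood on average 0.56 above their mean over the 13 libraries on the log2 scale, and the other 12 libraries lay between -0.26 and 0.23. Without that library the median was -0.01 for oxidative phosphorylation, 0.05 for fatty acid oxidation and 0.05 for the TCA cycle, and the last was also 0.05 without WT female replicate 1. The same library had the highest mean log2 level of fast muscle fibre genes and the highest share of mitochondrial ribosomal RNA (31.8%). Its muscle share of all counts was not the highest, at 16.4% against 21.6% in WT female replicate 4 and 20.6% in cKO male replicate 3. With a covariate for muscle genes the 3 medians were 0.09, 0.13 and 0.11. In females, 28 of 79 oxidative phosphorylation genes were positive (median -0.05), against 79 of 79 in males (median 0.26). Fatty acid oxidation had 21 of 36 positive in females (median 0.04) and 32 of 36 in males (median 0.29), and the TCA cycle had 8 of 16 (median 0.01) and 16 of 16 (median 0.26). In fits added after the data had been seen, the 3 male medians were 0.08, 0.10 and 0.11 without cKO male replicate 2. With each female library left out in turn, the female medians ran from -0.13 to 0.07, from -0.04 to 0.09 and from -0.16 to 0.14.

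In the other lists of AMPK outputs the shares of positive genes were lower than in these 3. Of 22 genes of fatty acid synthesis, 12 were positive (median 0.04). Dgat2, for the last step of triglyceride synthesis, had 0.35 ± 0.18, and Srebf1, for the factor that drives the pathway, had 0.18 ± 0.16. Of 26 genes of cholesterol synthesis and uptake, 19 were positive (median 0.06). Sqle, for squalene epoxidase, had 4.00 to 9.75 CPM in cKO and 4.30 to 7.63 CPM in WT (0.29 ± 0.13). Its high values were in cKO females (9.75, 9.47 and 8.26 CPM), against 4.95, 4.00 and 4.82 CPM in cKO males. In females 21 of the 26 genes of the list were positive (median 0.15), and in males 10 were (median -0.04). Glucose uptake, glycolysis and glycogen had 28 of 41 positive (median 0.07), with the insulin-regulated transporter gene Slc2a4 at 0.22 ± 0.15. Autophagy genes had 27 of 43 positive (median 0.05, and -0.01 without cKO male replicate 2), with the cargo receptor gene Sqstm1 at 0.15 ± 0.12, and all 43 intervals lay within a log2 fold change of 1. Genes of mTORC1 and growth control had 16 of 29 positive (median 0.01, and -0.02 without cKO male replicate 2). Ddit4, for the mTORC1 inhibitor REDD1, had 0.60 ± 0.38, with 1.73 to 11.9 CPM in cKO around a WT range of 1.98 to 7.54 CPM.

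Mitochondrial biogenesis and dynamics had 21 of 28 positive (median 0.05, and -0.02 without WT female replicate 1). Sirt3, for the mitochondrial deacetylase, had 7.13 to 10.9 CPM in cKO and 4.47 to 7.36 CPM in WT (0.34 ± 0.14), an overlap of narrow width. Of the 13 mRNAs encoded by the mitochondrial genome, 11 were positive (median 0.08). This median was -0.07 without cKO male replicate 2, and in females 4 of 13 were positive (median -0.14). Heat shock (11 of 20), hypoxia (8 of 16), unfolded protein (10 of 25) and antioxidant genes (20 of 29) had medians of 0.02, -0.01, -0.03 and 0.04, and the heat shock median was -0.07 without WT female replicate 1. Gclm, for a subunit of the glutathione synthesis enzyme, had -0.28 ± 0.23, and Manf, a secreted stress factor, had -0.21 ± 0.13. Nfil3, a repressor of the clock loop, had -0.26 ± 0.11, and the clock list had 15 of 22 positive (median 0.03).

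In the tendon matrix lists no gene passed the test. Of 28 collagen chain genes, 25 had a negative fold change, with a median of -0.12, which was -0.05 without cKO male replicate 2. Col24a1, a fibrillar chain of low level, had -0.34 ± 0.22, and Col5a3, for a chain that regulates fibril width, had -0.24 ± 0.19. Col14a1, for a collagen at the fibril surface, was 1 of the 3 positive chains (0.24 ± 0.19). For the main chains the intervals are wide, since Col1a1 ranged from 1761 to 13025 CPM among the WT libraries alone (log2 fold change -0.22 ± 0.36). Of 31 genes of collagen processing and crosslinking, 23 were negative (median -0.03, and 0.02 without cKO male replicate 2). Kdelr1, a retrieval receptor for chaperones of the endoplasmic reticulum, had 0.23 ± 0.10, and the lysyl hydroxylase gene Plod2 had -0.39 ± 0.21.

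The tenocyte identity list had 11 of 27 genes positive (median -0.05, and 0.07 without cKO male replicate 2). Apart from Scx, the smallest p was that of Lum, for the collagen-binding proteoglycan lumican. WT females had 42.5, 26.7, 28.1 and 28.3 CPM of it and WT males had 32.6, 29.6 and 26.7 CPM, against 37.3, 54.3 and 60.7 CPM in cKO females and 42.0, 24.5 and 27.1 CPM in cKO males. The high values were thus in cKO females, and the groups overlapped (0.41 ± 0.17, adjusted p = 1.00). Egr1, a factor of mechanical response in tendon and an immediate early gene, had 0.39 ± 0.21, and Cilp, for cartilage intermediate layer protein, had -0.28 ± 0.16. Ltbp2, for a microfibril-associated protein, had 0.43 ± 0.18, with 22 of 35 genes of its list of elastic fibre and matricellular genes positive (median 0.03). Small proteoglycans had 6 of 12 positive (median 0.02) and fibrocartilage genes 9 of 23 (median -0.05). Without cKO male replicate 2 these medians were 0.12 and 0.07.

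Pathways that act on tenocytes had medians close to 0. TGF-β had 14 of 29 genes positive (median -0.01), with the inhibitor gene Smad7 at -0.18 ± 0.13. BMP and GDF genes had 17 of 28 positive (median 0.03), with the BMP antagonist gene Nog at 0.44 ± 0.26 and the tendon and joint growth factor gene Gdf5 at -0.62 ± 0.40. IGF genes had 9 of 18 positive (median 0.00). Irs1, for the docking protein of the insulin and IGF1 receptors, had 146 to 170 CPM in WT and 121 to 152 CPM in cKO (-0.19 ± 0.09), and only cKO libraries lay under 146 CPM. Mechanosensing and YAP target genes had 14 of 34 positive (median -0.01), with the channel genes Piezo2 at -0.24 ± 0.15 and Trpv4 at -0.29 ± 0.20.

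Most genes of translation and of histone supply had small positive fold changes. Of 79 cytosolic ribosomal protein genes, 68 were positive (median 0.08, with 0.16 without WT female replicate 1 and 0.03 without cKO male replicate 2), and Rpl37a had 0.27 ± 0.12. Of 33 replication-dependent histone genes, 28 were positive (median 0.21), with H4c3 as above and H3c4 at 0.62 ± 0.31. The positive histone median was that of females (29 of 33 positive, median 0.45), and in males 15 of 33 were positive (median -0.09). Such histone transcripts lack a poly(A) tail. The labels name total RNA and an UltraExpress library kit, but not whether poly(A) selection or ribosomal RNA depletion preceded it. Proliferation genes had 21 of 31 positive (median 0.04), among them Pcna, the clamp of DNA polymerase (0.26 ± 0.13), and the cyclin gene Ccna2 (0.60 ± 0.33). In females 25 of the 31 were positive (median 0.30), and in males 5 were (median -0.22). Of inflammatory genes, 14 of 24 were positive (median 0.03), with Relb, an NF-κB subunit, at 0.26 ± 0.10.

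The summed levels of marker genes of other cells overlapped between the genotypes in every list. Macrophage genes were positive in 20 of 24 cases (median 0.18, and 0.42 without WT female replicate 1), and their summed level was 231 to 986 CPM in WT and 201 to 838 CPM in cKO. Schwann cell genes were negative in 15 of 18 cases (median -0.21, with -0.41 without the 2 high-eGFP libraries and 0.11 in limma-voom with quality weights), with sums of 140 to 671 CPM in WT and 94.8 to 490 CPM in cKO. Endothelial genes had 17 of 22 positive (median 0.06), and Cldn5, a tight junction gene of vessels, had 8.02 to 20.1 CPM in cKO and 6.86 to 10.001 CPM in WT (0.52 ± 0.18). Its high values were in cKO females (20.06, 11.05 and 16.67 CPM), against 9.166, 10.43 and 8.017 CPM in cKO males. Over the alternative fits its log2 fold change ran from 0.02 to 0.94. Mural and smooth muscle genes had 13 of 15 positive (median 0.11), but the median was 0.00 without the 2 high-eGFP libraries. Fast muscle fibre genes had 18 of 30 positive (median 0.03, but -0.10 without WT female replicate 1 and -0.08 without cKO male replicate 2), and slow fibre genes 10 of 15 (median 0.05, but -0.07 and -0.06 without these same libraries). Erythroid genes had sums from 25.5 to 518 CPM, and both of these extremes were cKO libraries. T cell and neutrophil markers were near 0, with Cd3e at no more than 0.36 FPKM and S100a8 at no more than 3.07 FPKM.

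Most list medians had opposite signs in the 2 sexes. This was so for 36 of the 50 lists with at least 5 tested genes. Matrix lists were positive in females and negative in males. Tenocyte identity genes were positive in 26 of 27 cases in females (median 0.41) and in 3 of 27 in males (median -0.45). Small proteoglycans had medians of 0.48 and -0.46, collagen processing genes 0.22 and -0.36, elastic fibre genes 0.24 and -0.29, and collagen chains 0.11 and -0.41 with 0 of 28 positive in males. Over all genes tested, 46.7% were positive in females and 52.9% in males.

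**Figure D4:**
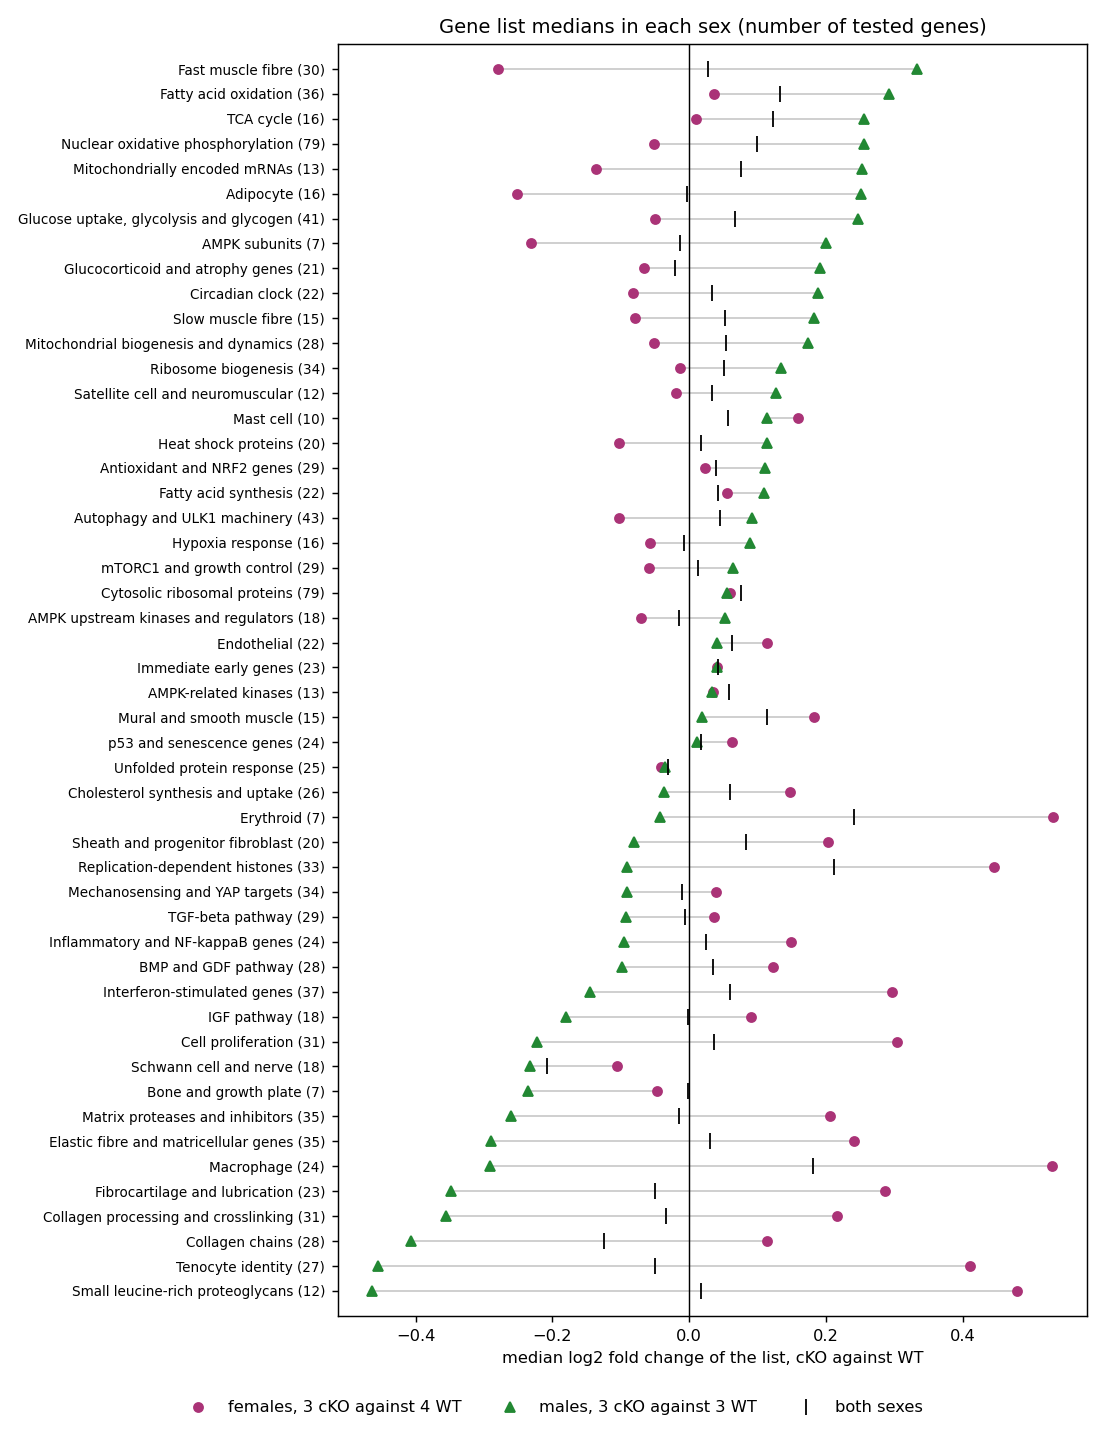
Median log2 fold change of cKO against WT for each gene list with at least 5 tested genes, in females (circles), males (triangles) and both (bars), with the number of tested genes in brackets. Tenocyte identity stands at 0.41 in females and -0.45 in males, and fast muscle fibre genes at -0.28 and 0.33.

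The libraries behind this pattern were few. The mean log2 level of the tenocyte list, relative to the 13 libraries, was -0.05, 0.12, -0.75 and 0.09 in WT females and 0.18, 0.40 and 0.48 in cKO females. In males it was 0.10, 0.01 and 0.38 in WT and 0.19, -0.60 and -0.56 in cKO. With Scx in the list the female groups did not overlap, but the gap between cKO replicate 1 (0.18) and WT replicate 2 (0.12) was narrow. WT female replicate 3 lay far below the rest. In males cKO replicates 2 and 3 were low and cKO replicate 1 lay within the WT range. The list includes Scx, which had 137.5 CPM in cKO female replicate 1 and 120.8 CPM in cKO male replicate 1, the high-eGFP libraries. That Scx value raises the mean of cKO female replicate 1, on which the narrow gap rests. The female groups thus cannot be said to stay apart without Scx. With each library of a sex left out in turn, an alternative added after the data had been seen, the median ran from 0.22 to 0.60 in females (lowest without WT female replicate 3) and from -0.79 to -0.28 in males. The collagen chain median in females ran from -0.03 to 0.24 and changed sign without WT female replicate 3.

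Lists of macrophage and muscle genes also had opposite signs in the sexes. Macrophage genes had a median of 0.53 in females, with 23 of 24 positive, and -0.29 in males, with 2 of 24 positive. Fast muscle fibre genes had -0.28 in females, with 2 of 30 positive, and 0.33 in males, with all 30 positive. The muscle share was 4.71% to 21.6% in WT females and 8.23% to 17.1% in cKO females, and 15.0% to 17.7% in WT males and 15.9% to 20.6% in cKO males. With the muscle covariate in the fit, the tenocyte medians were 0.46 and -0.49 and those of collagen chains 0.16 and -0.36. The fast fibre medians were then 0.06 and 0.04, but the covariate is the mean log2 level of the fast and slow fibre genes themselves. Fast fibre medians close to 0 were thus built into that fit. The macrophage sum was highest in WT female replicate 1 (986 CPM) and lowest in cKO male replicate 2 (201 CPM), and its part in these medians was not tested.

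**Figure D5:**
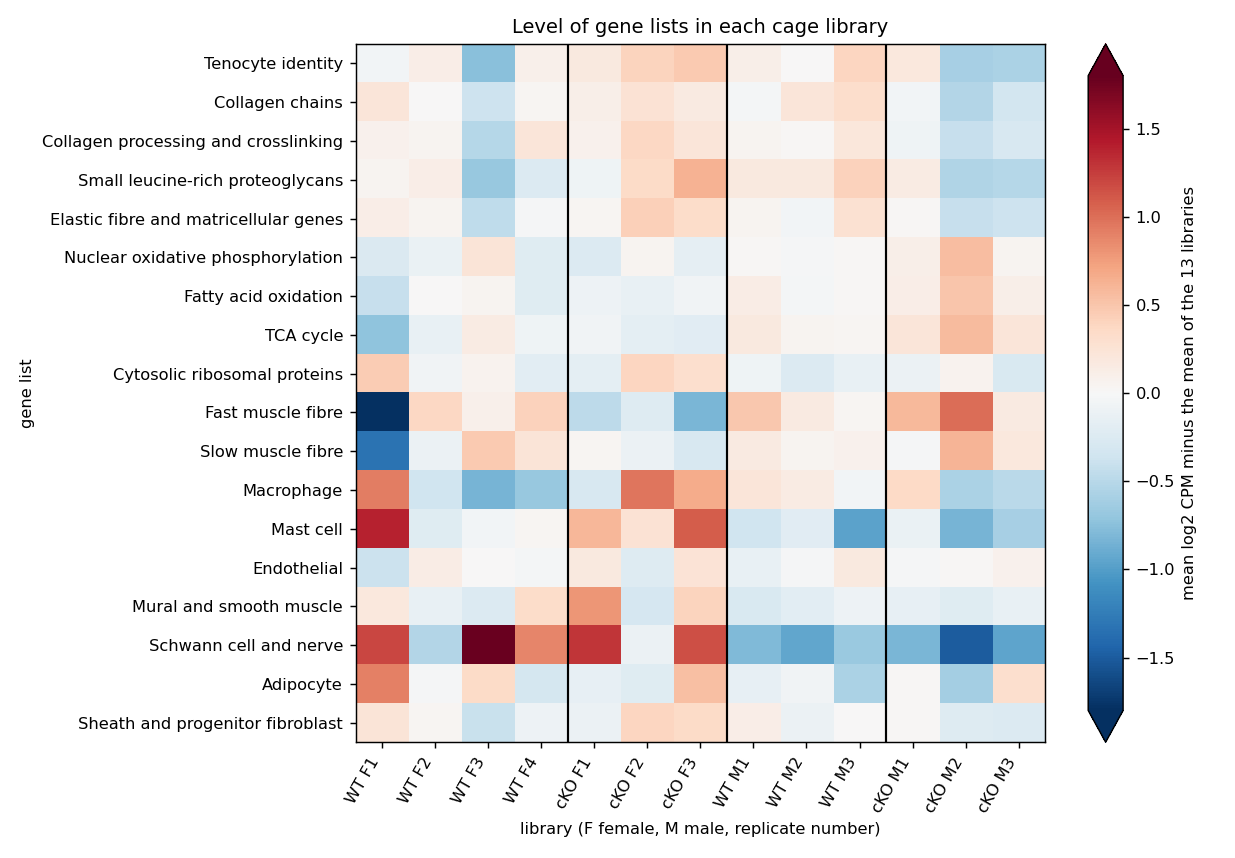
Mean log2 CPM of 18 gene lists in each cage library, relative to the mean of the 13 libraries (red above, blue below), with lines between the groups of sex and genotype. WT F3, cKO M2 and cKO M3 have the lowest tenocyte levels (-0.75, -0.60 and -0.56), and WT F1 has the lowest fast muscle fibre level (-1.81).

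No single gene passed the test of a genotype effect that differs between the sexes. In edgeR 0 of 17463 genes were called (0%), the lowest adjusted p was 0.956, and 831 had an unadjusted p under 0.05. DESeq2 called 2, which are named here after their values were seen. Arnt2, for a partner of bHLH-PAS transcription factors, had log2 fold changes of -1.18 in females and 2.18 in males (DESeq2 adjusted p = 0.00302). Mmrn1, for multimerin 1 of platelets and endothelium, had 1.16 and -0.28 (DESeq2 adjusted p = 0.0161). Fmod, the fibromodulin gene of the tenocyte list, also chosen after its values were seen, had 0.80 and -0.87, and its difference of -1.68 ± 0.48 had an adjusted p = 0.956.

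Set beside the same contrast in wheel runners, which shares no library with the cage comparison, most named genes differed in size or sign. Prkaa1 had -0.33 ± 0.16 in runners and -0.41 ± 0.16 at cage activity. Ednrb (0.47 ± 0.17), Fmo2 (0.34 ± 0.18) and Snora73b (0.48 ± 0.28) kept the positive sign, while Smpdl3a (-0.03 ± 0.14), Plbd1 (-0.13 ± 0.21) and Rhou (-0.14 ± 0.22) did not. Of the lower genes, Med12l had 0.21 ± 0.23, Lrsam1 had 0.19 ± 0.16 and Xrcc3 had 0.65 ± 0.27 in runners. Nuclear genes of oxidative phosphorylation were positive in 3 of 79 cases in runners (median -0.34) against 71 of 79 at cage activity, collagen chains in 28 of 28 (median 0.34) against 3 of 28, and Schwann cell genes in 17 of 18 (median 1.18) against 3 of 18. Across 12859 genes with a mean log2 CPM of at least 1, the Pearson correlation of the 2 sets of fold changes was -0.127, a description over genes that are not independent. An earlier fit of these data found 2 WT running libraries far from all others, and the runner values above include them. Prkaa2, for instance, had 173.9, 60.7 and 36.4 CPM in the WT running males. The difference between the activities was not tested here. Muscle shares of the runners were 16.5% ± 4.31 in WT and 10.2% ± 3.66 in cKO (SD, n = 6 each), a gap that the cage groups did not show.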

How the data were processed

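RNA was counted in 25 Achilles tendon libraries, of which the 13 from cage mice were compared. The tools named in the submitters' processing notes are RSEM 1.3.3, STAR 2.7.8a, FastQC 0.11.8 and cutadapt 2.3, and the build is GRCm38 (mm10). The deposited expected counts (RSEM estimated counts) and the deposited FPKM values cover 55487 genes and 4 reporter entries. Strand and annotation release are not stated. Gene positions are from GENCODE M21.

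Expected counts were tested without rounding in R 4.3.3 with edgeR 4.0.16, and were rounded only for DESeq2. Genes passing filterByExpr on genotype (17463) were scaled by TMM and fitted with genotype and sex by quasi-likelihood, two-sided, with Benjamini-Hochberg adjustment over all of them. Adjusted p under 0.05 made a call. The difference between sexes used 4 means of genotype and sex. DESeq2 1.42.0, limma 3.58.1 on log2(FPKM + 1) or log2(FPKM + 0.1), filters, scalings, covariates, subsets and each library left out served as alternatives. The code was tested on simulated counts. A list is described by its tested genes, with no test of its own.

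Named genes are the AMPK subunits, Scx, Bop1, up to 12 genes in each direction ranked by p among those whose mean log2 CPM reached 1, and the 2 or 4 members of each list with the smallest p. The 52 gene lists and this rule were chosen with earlier results of these data known. Some genes the rule names are not reported here, and others are summarised in the list counts.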

Additional observations from a re-analysis of the deposited data

Results flagged for a closer look

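Groups were searched for a library that lies far from the others by Dixon's gap ratio, and 9 of the 78 group ranges examined had one. The 78 include Cre in WT, at 0 in every library, which cannot give a flag. The ranges share libraries and include genes chosen by their p, so the 9 are not set against a chance rate. WT female replicate 1 lay at -94.1 on the first principal component of the cage libraries, and WT female replicate 4 lay at -67.0 on the second. Among subunit genes, Prkaa2 was low in WT female replicate 1 at 25.5 CPM, Prkag1 was high in WT male replicate 3 at 25.1 CPM, and Prkag2 was high in WT female replicate 1 at 38.7 CPM and in cKO female replicate 3 at 30.3 CPM. Xrcc3 was high in WT female replicate 1 at 4.96 CPM and Ccdc62 was high in cKO male replicate 3 at 3.44 CPM. In WT female replicate 1, eGFP stood at 0.0219 CPM, which is 1 count among WT libraries otherwise at 0. A lone count among libraries at 0 always gives this flag.

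The reporter entries lie outside the comparison of genes. The eGFP counts of 5 cKO libraries were above the highest WT count of 1: 3292 in female replicate 1, 64 in female replicate 2, 4857 in male replicate 1, 45 in male replicate 2 and 25 in male replicate 3.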

How the results depend on the processing

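Of 32 alternative fits, all but 1 called 0 genes, including each of the 13 that leave out a library (0 to 0 called). Without the filter on low counts, 48 of 38987 genes were called (22 higher and 26 lower), among them Bop1 (adjusted p = 1.24e-91) and Scx (adjusted p = 1.01e-18), which had an adjusted p = 1.00 with the filter. In that fit edgeR's weight on a spread shared by all genes (prior degrees of freedom) was infinite, against 5.17 in the main fit. Differences in spread between single genes were thus set aside, and these calls were not taken as results. For the difference between the sexes, DESeq2 called 2 genes and the fit without the filter called 117, and leaving out each library gave 0 to 0. The fold change of Prkaa1 was negative in all 32, from -0.49 to -0.31 with a library left out. With the replicate number as a block, 0 genes were called and Prkaa1 had -0.48. Same-numbered libraries did not deviate together (correlations -0.249 to 0.096, and 1 of 6 was closest to its own number), so the numbers were not taken as pairs. The muscle share difference was 0.114 percentage points as a share of summed FPKM (p = 0.895 by exact permutation) and ran from -2.28 to 0.733 with a library left out. It was positive without WT female replicate 4, cKO female replicate 2 or cKO female replicate 3. The log2 fold change of Scx reversed to -0.0218 with an eGFP term and to -0.0198 without the high-eGFP libraries. Limits are the group sizes, the spread in muscle content and a count that cannot resolve the removed exons.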
